A study of Mus musculus with 12 samples.

Results

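The 31 genes described here encode the contractile apparatus of smooth muscle and its calcium control, together with Kit and Ano1, which mark the pacemaker cells of the gut wall. They were picked by symbol and not by a cutoff on measured values, though earlier results of these data were known. All 31 were found among the 54532 gene rows of the files, and all 31 passed the low-count filter that left 17658 genes for testing. RNA was sequenced from the colon of 12 male C57BL/6 mice, 3 in each of 4 groups. Con mice received neither DSS nor ursolic acid, and were gavaged with the vehicle alone. DSS mice drank 3% (w/v) dextran sulfate sodium, which injures the colon lining, for 5 days, and were also gavaged with the vehicle. UA+DSS mice drank the same DSS and also received ursolic acid (a triterpenoid found in many plants) by gavage, 200 mg/kg for 7 days from 1 day before DSS began. DSS+UA mice drank the same DSS and were gavaged with 200 mg/kg ursolic acid for 4 days from 3 days after DSS began. Mice were 6 weeks old on arrival and 8 were kept per group. Each library is 1 mouse, and the sources used here do not say which stretch of the colon, or how much of its muscle coat, went into the RNA.

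Muscle surrounds the colon as an inner circular and an outer longitudinal coat, and a thin sheet also lies under the mucosa. Smooth muscle contracts when calcium enters through voltage-gated channels, binds calmodulin and switches on myosin light chain kinase, which lets myosin pull on smooth muscle actin. Interstitial cells of Cajal lie between and within the layers and set the slow electrical waves that pace the muscle. They need the receptor tyrosine kinase Kit to survive, and the chloride channel Ano1 carries their pacemaker current. Serum response factor, SRF, with its partner myocardin switches on many contractile genes through a DNA element called the CArG box.

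RefSeq start sites on GRCm38.p6 were found for 26 of the 31 genes, and the 250 bases before each start were searched on both strands for the CArG box, a motif of 10 bases. An exact CArG box stood in 2 of the 26 (7.69%), against 1.62% of all genes with a window. With 1 mismatch allowed, 13 of the 26 (50.0%) had one, against 21.1% of all genes. The sequences are the exact matches, 161 bases before the start of Myl9 and 109 before that of Ldb3, and 1 match each of an actin, an actin-starting protein and a calcium store gene as examples of the rest. They come from RefSeq, run 5′ to 3′ on the gene's strand, and have the matching bases in capitals.
Myl9, chr2:156775293-156775322, plus strand: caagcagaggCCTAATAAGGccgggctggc
Ldb3, chr14:34588697-34588726, minus strand: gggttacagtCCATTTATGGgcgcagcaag
Acta2, chr19:34255438-34255467, minus strand: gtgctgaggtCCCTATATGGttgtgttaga
Lmod1, chr1:135324614-135324643, plus strand: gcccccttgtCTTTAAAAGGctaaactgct
Casq2, chr3:102086362-102086391, plus strand: acaactgcatCCTAAAAATGgagttcttaa
The first pair are exact and the others hold 1 mismatch. Neither Kit, Ano1, Pln nor Des had a match in this window, which says only that these letters were absent there. No window was at hand for Myh11, Tagln, Actg2, Myocd or Nexn.

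The amount of muscle RNA differed between mice of the same group. The 31 genes took 0.318, 0.274 and 0.817% of all counts in the Con libraries, 0.423, 0.293 and 0.378% in DSS, 0.524, 0.312 and 0.550% in UA+DSS and 0.201, 0.210 and 0.167% in DSS+UA. Group means were 0.470 ± 0.302% in Con, 0.365 ± 0.0662% in DSS, 0.462 ± 0.130% in UA+DSS and 0.193 ± 0.0226% in DSS+UA (SD, n = 3). All DSS+UA libraries lay below all others, while the other 3 groups overlapped. Con 3 stood apart from the other Con libraries. In Con 3, 27 of the 31 genes were higher than in Con 1 and Con 2, and 19 were at least 2 times their mean there. These are bulk samples, so fewer muscle cells and less RNA per muscle cell cannot be told apart. The position along the colon also differed, as read from homeobox genes. A position score was formed from Hoxb13 and Hoxd10 to Hoxd13, which mark the end of the gut, by subtracting the mean log2 level of Hoxb3 to Hoxb8 from theirs, so it is higher toward the rectum. It was -4.88, -5.70 and -4.16 in UA+DSS and 4.11, 4.47 and 5.06 in DSS+UA, and spread from -3.03 to 5.53 in Con and from 0.37 to 3.10 in DSS. The UA+DSS libraries lay below all others in this score and the DSS libraries below the DSS+UA libraries. Con 2 (-3.03) and Con 3 (-1.83) lay below all DSS and DSS+UA libraries, and Con 1 (5.53) above them. Treatment and sampled position therefore cannot be told apart where UA+DSS is compared with any group or DSS+UA with DSS. Comparisons of DSS or DSS+UA with Con are not free of position either. Depth was even, with 15566216 to 19498383 counts per library. Smooth muscle was present in all libraries by its defining genes, and the 6 genes of a cardiac muscle list summed to 5.67 to 21.5 CPM, highest in DSS 2, with Myh6 and Nppa at or near 0.

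**Figure D1:**
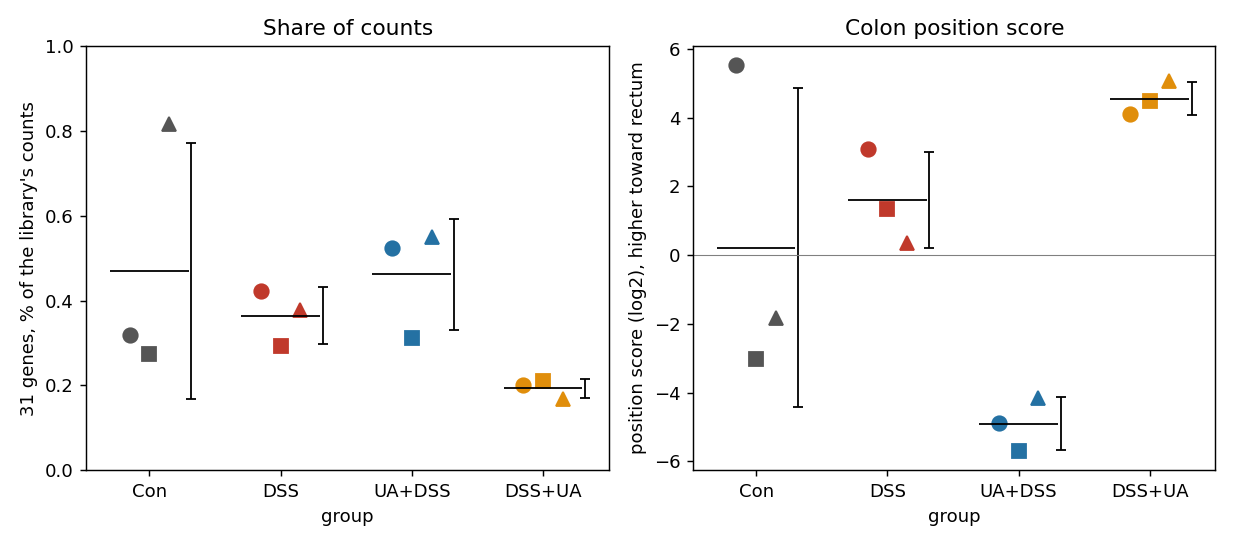
Left, the share of all counts (percent) taken by the 31 genes in each library; right, the position score (log2, higher toward the rectum), by group. Symbols are replicates 1 to 3, the line is the group mean and the bar the SD. Con 3 lies above every other library on the left, and the UA+DSS libraries lie below 0 and the DSS+UA libraries above 0 on the right.

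Levels are given as CPM, the counts scaled to the library's size with TMM factors, and levels of different genes are compared per kilobase of exon. By mean level per kilobase over the 4 groups, the myosin light chain Myl9 (178), the smooth muscle actins Acta2 (167) and Actg2 (155) and the tropomyosin Tpm1 (90.5) led. Pln (0.570), Pcp4 (0.459) and Myocd (0.403) were the least abundant. Tagln, an actin-binding protein of smooth muscle, reached only 2.78. In the annotation 67.9% of the Tagln exon bases lie under Pcsk7 and Gm48529 on the other strand, and 64.7% of those of Pln lie under Cep85l and Gm47644. Whether reads there were assigned by strand is not given in the sources used here, so the levels of Tagln and Pln are uncertain.

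**Figure D2:**
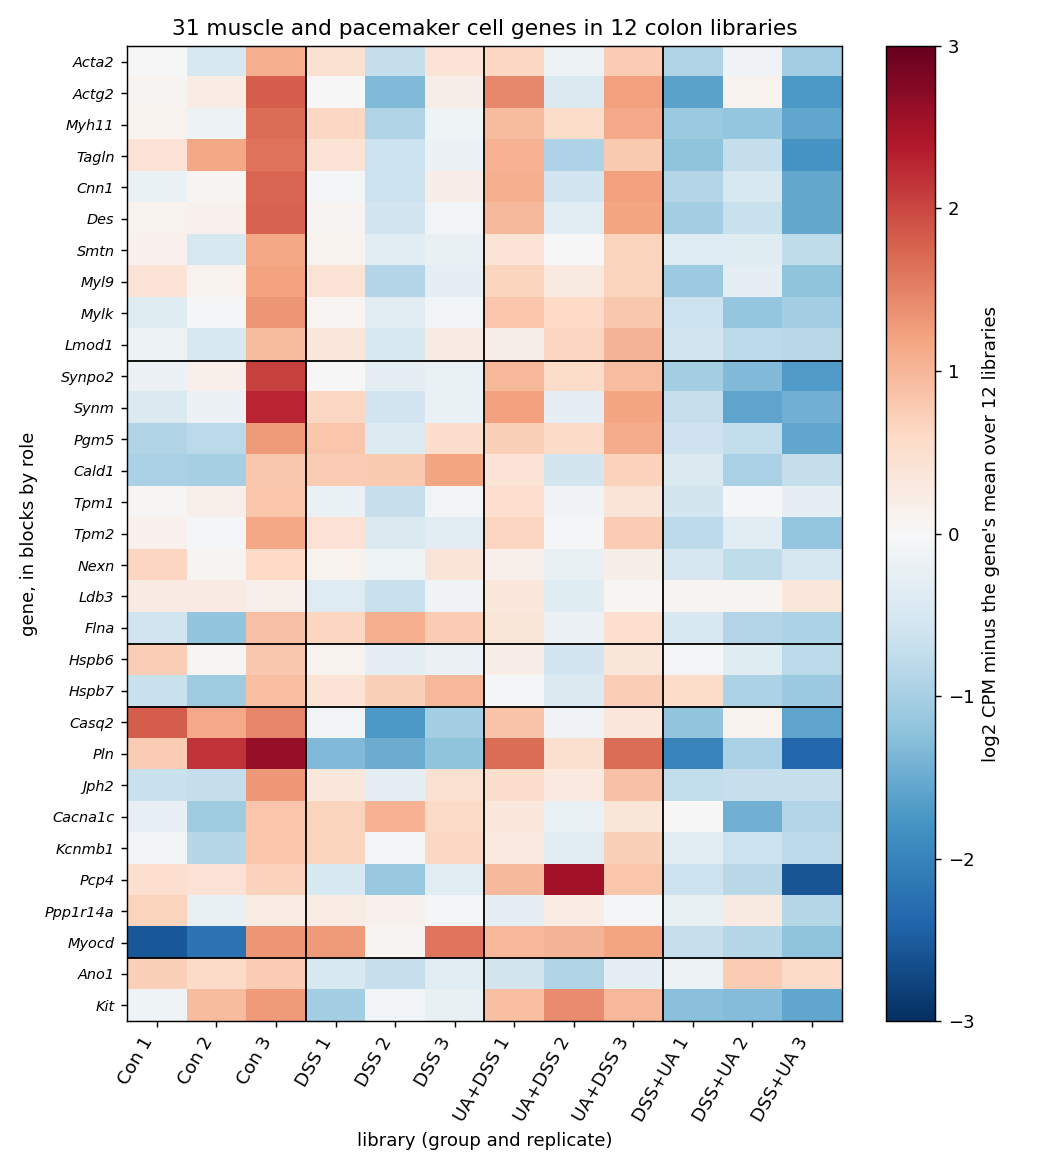
Log2 CPM of the 31 genes (rows, in blocks by role) in the 12 libraries (columns), each gene shown relative to its own mean. Con 3 is red for most genes and the DSS+UA libraries are blue for most, while Ano1 and Ldb3, whose Con 3 level is close to Con 1 and Con 2, do not follow it.

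Across the 6 comparisons different genes were called, and roles were not tested against each other. Phospholamban (Pln), calsequestrin (Casq2), Ano1 and Kit were lower in DSS than in Con, and Pln and Kit were higher in UA+DSS than in DSS. Of the 10 core contractile genes, 5 were called in DSS+UA against Con, 6 in UA+DSS against DSS+UA and 0 in DSS+UA against DSS, where DSS+UA is the group with the lowest muscle share. In DSS against Con, 0 of the 31 genes rose and 5 fell, against 13.9% and 12.6% of all genes tested. In UA+DSS against DSS, 3 rose and 0 fell, against 8.21% and 10.5%. The 5 lowered and the 3 raised genes were close to the shares over all genes. For DSS+UA against the DSS group, 1 rose and 0 fell, against 2.54% and 5.0%, and 14 had an unadjusted p under 0.05. For UA+DSS against Con edgeR called 0 of the 31, against 0.00566% of all genes. There, 1 had an unadjusted p under 0.05, DESeq2 called 1 (Ano1) and limma-voom 0. In DSS+UA against Con, 0 rose and 11 fell, against 9.13% and 8.95%. In UA+DSS against DSS+UA, 11 rose and 1 fell, against 7.54% and 9.23%. The 31 genes had a median log2 difference of -1.05 in DSS+UA against Con and 1.30 in UA+DSS against DSS+UA, where the medians over all genes were -0.03 and 0.01. Several comparisons share a group, so their counts are not separate evidence.

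Among the 10 core genes of the contractile apparatus, 5 fell in DSS+UA against Con and 6 were higher in UA+DSS than in DSS+UA, while 0 were called in DSS against Con or in either ursolic acid group against DSS by edgeR. At an unadjusted p under 0.05 these 3 comparisons had 1, 1 and 3 of the 10. DESeq2 called 1, 0 and 1 of them and limma-voom 0 in each. Myh11, the smooth muscle myosin heavy chain (chr16:14194535-14291372, GRCm38), measured 326, 269.8 and 969 CPM in Con, 461, 160.5 and 276 in DSS, 587, 441 and 665 in UA+DSS and 140.2, 135 and 102 in DSS+UA. The DSS+UA libraries were the lowest and did not overlap any other group, and Con 3 was the highest of the 12. The level fell by 2.06 (SE 0.50, adjusted p = 0.0199) on the log2 scale in DSS+UA against Con and was 2.17 (SE 0.50, adjusted p = 0.0178) higher in UA+DSS than in DSS+UA.

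Desmin (Des), the intermediate filament of muscle, measured 199, 202 and 638 CPM in Con, 198, 126 and 176 in DSS, 362, 147 and 422 in UA+DSS and 89.6, 116 and 64.3 in DSS+UA. It was lowest in DSS+UA, where it fell by 1.94 (SE 0.51, adjusted p = 0.0270) against Con. UA+DSS exceeded DSS+UA by 1.79 (SE 0.51, adjusted p = 0.0368) without overlap. Myl9, the light chain that myosin light chain kinase acts on and one of the exact CArG matches, measured 246, 198 and 422 CPM in Con, 246, 99.9 and 150.3 in DSS, 290.2, 222 and 292 in UA+DSS and 87.0, 153 and 79.3 in DSS+UA. Its log2 change was -1.44 (SE 0.38, adjusted p = 0.0272) in DSS+UA against Con and 1.33 (SE 0.38, adjusted p = 0.0365) in UA+DSS against DSS+UA. DSS 2 and DSS 3 lay within the DSS+UA range. Mylk, which encodes that kinase, measured 131, 164 and 419 CPM in Con, 175, 135 and 159 in DSS, 298, 255 and 295 in UA+DSS and 107, 74.7 and 82.3 in DSS+UA. It fell by 1.44 (SE 0.36, adjusted p = 0.0229) in DSS+UA against Con and was 1.69 (SE 0.37, adjusted p = 0.0145) higher in UA+DSS. Tagln measured 5.95, 9.76 and 13.6 CPM in Con, 5.77, 2.81 and 3.86 in DSS, 8.98, 2.31 and 7.50 in UA+DSS and 1.90, 2.66 and 1.28 in DSS+UA. The Con libraries lay above all DSS+UA libraries, and Tagln fell by 2.33 (SE 0.53, adjusted p = 0.0155) there. In UA+DSS it was 1.69 (SE 0.52, adjusted p = 0.0470) above DSS+UA, although UA+DSS 2 lay within the DSS+UA range. Lmod1, which starts actin filaments, measured 20.3, 16.3 and 43.6 CPM in Con, 28.6, 16.5 and 26.8 in DSS, 25.5, 35.3 and 45.7 in UA+DSS and 15.3, 12.9 and 12.7 in DSS+UA. By edgeR it passed the test in UA+DSS against DSS+UA alone of the 6 comparisons, and DESeq2 also called it lowered in DSS+UA against Con. The edgeR value was 1.38 (SE 0.36, adjusted p = 0.0271). Each of these 11 calls of core genes was lost without DSS+UA 3, where adjusted p was 0.0596 to 0.156. Those of DSS+UA against Con in Myh11, Des, Myl9 and Tagln were also lost without Con 3, where adjusted p was 0.0510 to 0.0984. Without Con 3 the log2 change there was -1.24 (adjusted p = 0.0619) for Myh11, -1.15 (adjusted p = 0.0916) for Des and -0.74 (adjusted p = 0.0487) for Mylk.

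Neither smooth muscle actin passed the edgeR test with all 12 libraries in any of the 6 comparisons, and both varied widely within groups. Acta2, the actin of vessels and other smooth muscle, measured 335, 239 and 703 CPM in Con, 459, 203 and 443 in DSS, 512, 301 and 566 in UA+DSS and 179, 310.0 and 161 in DSS+UA. DSS+UA 2 lay within the range of every other group, and the smallest adjusted p was 0.118, in UA+DSS against DSS+UA. Actg2, the enteric actin, measured 195, 214 and 641 CPM in Con, 185, 73.3 and 207 in DSS, 499, 134 and 427 in UA+DSS and 59.8, 196 and 55.8 in DSS+UA. UA+DSS 2 lay far below the other UA+DSS libraries and DSS+UA 2 far above the other DSS+UA libraries. Its log2 differences of -1.75 in DSS+UA against Con and 1.77 in UA+DSS against DSS+UA had adjusted p = 0.101 and 0.107. Calponin (Cnn1) ranged from 51.7 to 502 CPM and smoothelin (Smtn) from 31.1 to 118 CPM over the 12 libraries, and edgeR called neither. DESeq2 did call Actg2, Cnn1 and Smtn lowered in DSS+UA against Con, and Actg2 and Cnn1 raised in UA+DSS against DSS+UA. With only those 2 groups in the fit, edgeR called Acta2, Cnn1 and Smtn raised in UA+DSS against DSS+UA. Pericyte genes, which mark the wall cells of small vessels, were also low in DSS+UA, with a summed level of 113 to 213 CPM over 6 genes against 191 to 463 in Con, 341 to 516 in DSS and 336 to 435 in UA+DSS. Of the 6, 4 fell in DSS+UA against DSS and 2 were higher in UA+DSS than in DSS+UA, against 5.0% and 7.54% of all genes. In DSS against Con 3 rose, against 13.9%, and in UA+DSS against DSS 2 fell, against 10.5%. Against Con, DSS+UA had 1 raised and 1 lowered, against 9.13% and 8.95%, and the summed levels of these groups overlapped. The part of pericytes in the levels of the actins was not tested.

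Among 9 other filament and attachment genes, Synpo2, Nexn and Tpm2 fell in DSS+UA against Con, Ldb3 fell in DSS against Con, and Synpo2 and Tpm2 were higher in UA+DSS than in DSS+UA. Synpo2, an actin-bundling protein of muscle, measured 38.9, 49.3 and 182 CPM in Con, 44.2, 36.2 and 38.2 in DSS, 87.9, 65.1 and 84.4 in UA+DSS and 21.6, 17.7 and 13.7 in DSS+UA. The 3 DSS+UA libraries were the lowest of the 12, and the UA+DSS libraries lay above all DSS libraries. Its change was -2.35 (SE 0.50, adjusted p = 0.0131) in DSS+UA against Con and 2.16 (SE 0.50, adjusted p = 0.0182) in UA+DSS against DSS+UA. Tpm2, a tropomyosin that lies along actin, measured 186, 164 and 378 CPM in Con, 229, 125 and 135 in DSS, 265, 167 and 286 in UA+DSS and 98.4, 134 and 76.4 in DSS+UA. It fell by 1.24 (SE 0.37, adjusted p = 0.0409) in DSS+UA against Con and was 1.22 (SE 0.37, adjusted p = 0.0449) higher in UA+DSS than in DSS+UA. Without Con 3 the change of Synpo2 in DSS+UA against Con was -1.31 (adjusted p = 0.0191). Without DSS+UA 3 both genes lost both calls, with adjusted p of 0.0581 and 0.0732 for Synpo2 and 0.142 and 0.155 for Tpm2. Nexn, an actin-binding protein, had narrow groups at 15.5, 10.5 and 14.9 CPM in Con, 10.6, 9.02 and 12.8 in DSS, 11.0, 8.43 and 11.1 in UA+DSS and 7.0, 5.81 and 6.99 in DSS+UA. Its DSS+UA libraries lay below all others and it fell by 1.05 (SE 0.23, adjusted p = 0.0132) against Con, a call that held in each of the 12 fits without 1 library. Ldb3, whose protein binds alpha-actinin and whose start region holds the other exact CArG match, measured 24.6, 24.8 and 23.0 CPM in Con, 16.0, 13.0 and 19.2 in DSS, 25.8, 16.2 and 21.6 in UA+DSS and 22.0, 22.0 and 26.4 in DSS+UA. The Con libraries were close together and lay above all DSS libraries, and Ldb3 fell by 0.59 (SE 0.20, adjusted p = 0.0494). That call was lost in 10 of the 12 fits that left out 1 library, all but those without DSS 3 or UA+DSS 2, with adjusted p of 0.0506 to 0.140.

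Cald1 and Flna had another order of groups, with the highest mean in DSS. Caldesmon (Cald1), which holds actin and myosin apart in muscle and is also made in non-muscle cells, measured 73.5, 72.6 and 255 CPM in Con, 245, 250.2 and 327 in DSS, 193, 98.8 and 234 in UA+DSS and 107, 73.7 and 87.8 in DSS+UA. Filamin A (Flna), an actin cross-linker of many cell types, measured 249, 166 and 699 CPM in Con, 592, 807 and 643 in DSS, 489.7, 336 and 537 in UA+DSS and 274, 206 and 196 in DSS+UA. For both genes the DSS libraries lay above Con 1, Con 2 and all DSS+UA libraries, and Con 3 lay within the DSS range. Neither passed the test in DSS against Con with all libraries, at log2 differences of 1.03 (adjusted p = 0.125) and 0.87 (adjusted p = 0.156). Without Con 3 they did, at 1.90 (adjusted p = 0.00808) and 1.70 (adjusted p = 0.00736). Fibroblast genes were also highest in DSS, and 5 of the 7 on a fibroblast list rose in DSS against Con, where 13.9% of all genes did. Their summed level was 1175 to 1918 CPM in Con and 3261 to 6898 CPM in DSS. It was 621 to 1648 CPM in UA+DSS and 950 to 2417 CPM in DSS+UA, while mean Cald1 and Flna were higher in UA+DSS. In Con 3, where both genes were highest among Con, the fibroblast sum was 1475 CPM, between Con 1 and Con 2. The part of fibroblasts in Cald1 and Flna was not tested. Synm (12.1 to 176 CPM over the 12 libraries), Pgm5 (12.4 to 87.6 CPM) and Tpm1 (349 to 1003 CPM), other filament genes, were not called by edgeR in any comparison, nor were the small chaperones Hspb6 (4.82 to 14.8 CPM) and Hspb7 (6.54 to 28.1 CPM). DESeq2 called Hspb6 lowered in DSS+UA against Con, Pgm5 raised in UA+DSS against DSS+UA, and Cald1 and Flna lowered in DSS+UA against DSS. With upper-quartile scaling edgeR also called Synm and Hspb6 lowered in DSS+UA against Con.

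Pln and Casq2, genes of the calcium store, fell in DSS and in DSS+UA against Con. Pln (chr10:53337667-53345987, GRCm38) encodes phospholamban, the brake on the calcium pump of the sarcoplasmic reticulum. It measured 1.45, 3.83 and 5.19 CPM in Con, 0.337, 0.301 and 0.370 in DSS, 2.69, 1.19 and 2.71 in UA+DSS and 0.211, 0.433 and 0.166 in DSS+UA. DSS and DSS+UA libraries lay below all Con and UA+DSS libraries and overlapped each other. Pln fell by 3.35 (SE 0.57, adjusted p = 0.00346) in DSS against Con, was 2.69 (SE 0.56, adjusted p = 0.0139) higher in UA+DSS than in DSS, and was 3.01 (SE 0.58, adjusted p = 0.0101) higher in UA+DSS than in DSS+UA. Against Con, DSS+UA fell by 3.67 (SE 0.59, adjusted p = 0.00528). These values rest on few reads, 28 to 97 per Con library and 3 to 7 per DSS or DSS+UA library. All 4 calls held in each of the 12 fits without 1 library.

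Casq2 (chr3:102086415-102146514), which stores calcium in the sarcoplasmic reticulum, measured 14.0, 8.71 and 11.0 CPM in Con, 3.75, 1.20 and 1.95 in DSS, 7.25, 3.69 and 5.0 in UA+DSS and 1.74, 4.27 and 1.33 in DSS+UA. The Con libraries were above all others. The share of counts taken by the genes described here was 0.318% in Con 1 and 0.274% in Con 2, above all DSS+UA libraries. In this share Con 2 lay below all DSS and UA+DSS libraries, while Con 1 lay above DSS 2 (0.293%) and UA+DSS 2 (0.312%). Casq2 fell by 2.28 (SE 0.52, adjusted p = 0.0102) in DSS and by 2.20 (SE 0.52, adjusted p = 0.0175) in DSS+UA, each against Con. The call in DSS+UA was lost without DSS+UA 1 (adjusted p = 0.0608) or DSS+UA 3 (0.0706), and that in DSS held in each of the 12 fits without 1 library. In UA+DSS its mean was 5.31 ± 1.80 CPM against 2.30 ± 1.31 CPM in DSS (SD, n = 3), with adjusted p = 0.118. Pcp4, a small regulator of calmodulin, had 1 to 30 reads per library and measured 0.465, 0.444 and 0.535 CPM in Con, 0.241, 0.150 and 0.264 in DSS, 0.642, 1.87 and 0.585 in UA+DSS and 0.211, 0.186 and 0.0554 in DSS+UA. It was 2.20 (SE 0.59, adjusted p = 0.0276) higher in UA+DSS than in DSS and 2.72 (SE 0.62, adjusted p = 0.0173) higher than in DSS+UA. UA+DSS 2 held 30 of these reads, and without it adjusted p was 0.148 and 0.0848. The first call was also lost without DSS 1 (0.0769) or DSS 2 (0.0891) and the second without DSS+UA 3 (0.0719).

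**Figure D3:**
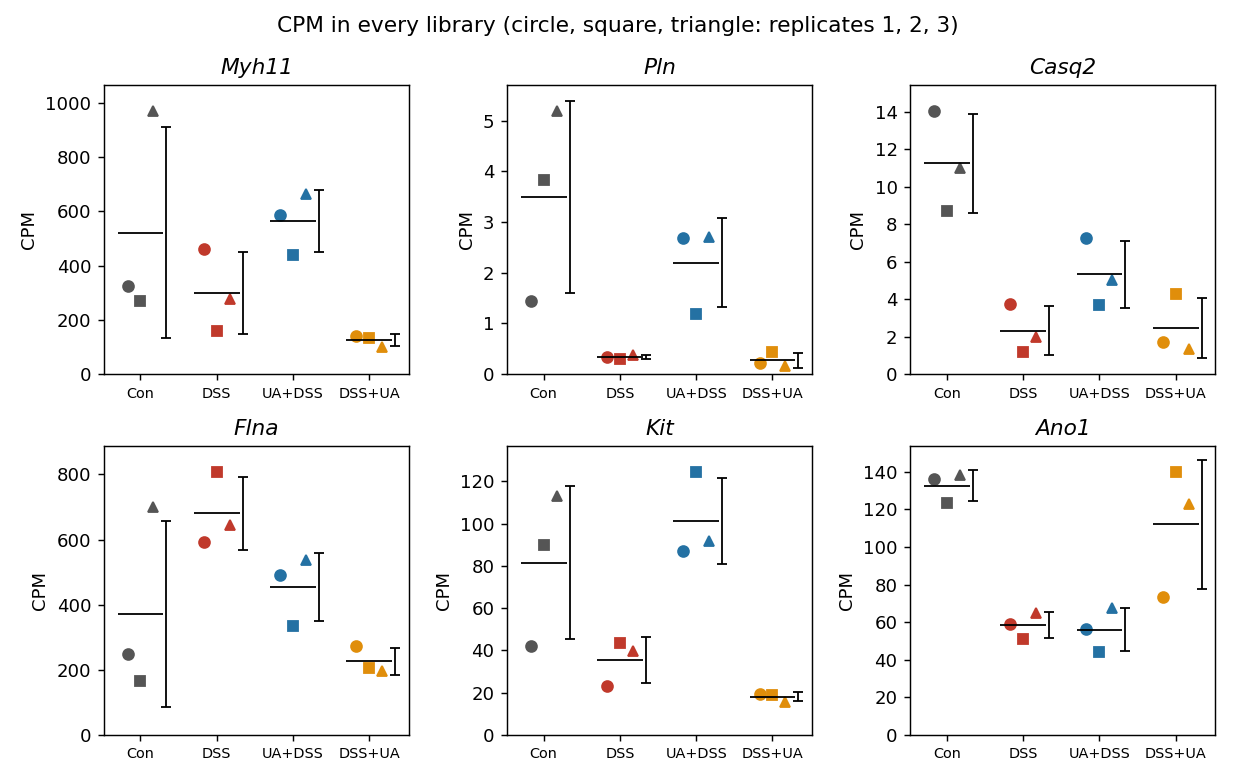
CPM of Myh11, Pln, Casq2, Flna, Kit and Ano1 in every library by group, with symbols for replicates 1 to 3, the mean as a line and the SD as a bar. Pln is low in DSS and DSS+UA, Kit is lowest in DSS+UA, and Ano1 is low in DSS and UA+DSS.

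The other genes of calcium handling and its regulators were not called by edgeR in any comparison. Myocardin (Myocd), the SRF partner, measured 0.310, 0.388 and 4.49 CPM in Con, 4.38, 1.90 and 5.44 in DSS, 3.59, 3.62 and 4.09 in UA+DSS and 1.11, 0.990 and 0.776 in DSS+UA. Con 1 and Con 2 held the lowest values of the 12 libraries, and Con 3 lay within the DSS range, 12.9 times the mean of the other Con libraries. With all libraries the log2 difference of DSS against Con was 1.17 (adjusted p = 0.294), and without Con 3 it was 3.45 (adjusted p = 0.00473). Ppp1r14a, an inhibitor of myosin phosphatase, measured 33.4, 18.2 and 24.7 CPM in Con, 24.7, 23.1 and 20.2 in DSS, 17.4, 24.7 and 20.5 in UA+DSS and 18.1, 25.5 and 11.6 in DSS+UA. All 4 groups overlapped, and Con 3 lay between Con 1 and Con 2. Junctophilin (Jph2) ranged from 11.1 to 46.1 CPM, the L-type calcium channel Cacna1c from 4.33 to 24.2 CPM and the potassium channel subunit Kcnmb1 from 4.16 to 13.5 CPM over the 12 libraries. DESeq2 called Cacna1c lowered in DSS+UA against DSS and Jph2 raised in UA+DSS against DSS+UA.

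Kit and Ano1, both used to mark interstitial cells of Cajal, both fell in DSS against Con but changed in opposite directions between the ursolic acid groups. Kit (chr5:75574916-75656722) measured 42.0, 89.7 and 113 CPM in Con, 22.9, 43.4 and 39.7 in DSS, 87.2, 124 and 92.0 in UA+DSS and 19.5, 18.9 and 15.6 in DSS+UA. DSS+UA was below all other libraries and UA+DSS was above all DSS and DSS+UA libraries, while Con 1 lay within the DSS range. Kit fell by 1.21 (SE 0.34, adjusted p = 0.0239) in DSS against Con and was 1.52 (SE 0.34, adjusted p = 0.0160) higher in UA+DSS than in DSS. It fell by 2.18 (SE 0.35, adjusted p = 0.00528) in DSS+UA against Con and was 2.49 (SE 0.35, adjusted p = 0.00591) higher in UA+DSS than in DSS+UA, and these last calls held in each of the 12 fits without 1 library. The call in DSS against Con was lost without Con 2 (adjusted p = 0.0688), Con 3 (0.0758) or DSS 1 (0.0765), and that in UA+DSS against DSS without UA+DSS 2 (0.0754).

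Ano1 (chr7:144588549-144751974), which some secretory epithelial cells also make, measured 136, 123 and 138 CPM in Con, 59.3, 51.1 and 64.9 in DSS, 56.5, 44.2 and 67.5 in UA+DSS and 73.5, 139.9 and 123 in DSS+UA. Con and DSS+UA libraries lay above all DSS and UA+DSS libraries. Ano1 fell by 1.18 (SE 0.23, adjusted p = 0.00588) in DSS against Con and rose by 0.94 (SE 0.23, adjusted p = 0.0387) in DSS+UA against DSS. It was lower in UA+DSS than in DSS+UA, at -1.0 (SE 0.23, adjusted p = 0.0177). The fall in DSS held in each of the 12 fits without 1 library. The rise in DSS+UA was lost in 7 of them, without Con 2, DSS 1, DSS 2, UA+DSS 1, UA+DSS 3, DSS+UA 2 or DSS+UA 3, with adjusted p of 0.0513 to 0.152, and the difference between the ursolic acid groups without UA+DSS 1 (0.0542), UA+DSS 2 (0.0810) or DSS+UA 3 (0.0630). Of 9 epithelial genes 3 rose in DSS+UA against DSS, where 2.54% of all genes did. Their summed levels were 15448 to 24006 CPM against 7409 to 11875 CPM. In UA+DSS against DSS 2 of the 9 rose, against 8.21% of all genes, and the sum was 14266 to 17173 CPM. It was 13103 to 18385 CPM in Con. Ano1 in UA+DSS overlapped DSS and was not called against it. The part of epithelial genes in the level of Ano1 was not tested. The log2 level of Kit minus that of Ano1 was 0.63, 1.49 and 0.45 in UA+DSS and -1.91, -2.88 and -2.96 in DSS+UA, and from -1.69 to -0.24 in the 6 Con and DSS libraries.

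Kit also marks mast cells. Of 10 mast cell markers 9 were tested. In DSS against Con, where Kit fell and 13.9% of all genes rose, 5 of the 9 rose. The summed level of the 10 was 4.77 to 13.0 CPM in Con, 53.2 to 903 in DSS, 8.75 to 35.0 in UA+DSS and 51.7 to 129.6 in DSS+UA. Cpa3, a mast cell protease, was at 0 in Con 1 and Con 2 and did not exceed 2.35 CPM elsewhere. Of 5 further genes tied to the pacemaker cells, Kitl, the ligand of Kit, changed in 3 of the same comparisons. Kitl measured 95.1, 152 and 151 CPM in Con, 76.4, 67.9 and 101 in DSS, 128, 124 and 132 in UA+DSS and 88.2, 77.9 and 88.7 in DSS+UA. It fell by 0.70 (SE 0.20, adjusted p = 0.0258) in DSS against Con, was 0.65 (SE 0.20, adjusted p = 0.0435) higher in UA+DSS than in DSS, and changed by -0.64 (SE 0.20, adjusted p = 0.0457) in DSS+UA against Con. Prkcq, a protein kinase C, rose in DSS against Con, at 1.69 (SE 0.47, adjusted p = 0.0230). Thbs4, a matrix protein of other cells as well, was lower in UA+DSS than in DSS+UA, at -2.60 (SE 0.71, adjusted p = 0.0323). The list summed to 327 to 457 CPM in Con, 202 to 322 in DSS, 168 to 286 in UA+DSS and 391.7 to 463 in DSS+UA, most of it Thbs4 and Kitl. Etv1, a transcription factor of these cells, was 1.28 (SE 0.31, adjusted p = 0.0207) higher in UA+DSS than in DSS+UA. By Pearson correlation of log2 levels over the 12 libraries among 13723 genes, Mapre3 (0.970), Tbcel (0.969) and Tsc22d1 (0.965) were most like Kit, and Pdp2 (0.930), St3gal6 (0.916) and Gm6665 (0.912) most like Ano1. These values describe 12 libraries that share position and muscle content.

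To separate differences between groups from muscle content, the libraries were scaled so that 12 other smooth muscle genes, none of the 31, had the same mean log2 level in each. Of those 12, 1 rose and 2 fell in DSS against Con by edgeR on the CPM scale, and 3 were higher in UA+DSS than in DSS+UA. Over all genes, 13.9% rose and 12.6% fell in the first and 7.54% were higher in the second. The mean log2 level of these 12 genes was 4.39 in Con and 4.47 in DSS, while that of the 10 core genes was 7.12 and 6.48. The 2 sets thus went opposite ways there, so this scaling does not make the core genes equal between Con and DSS. Within groups, the median SD of log2 levels over the 31 genes went from 0.621 to 0.373, and it became smaller for 24 of the 31. For the 10 core genes it went from 0.642 to 0.355 and shrank for all 10, while over all genes it went from 0.371 to 0.560 and shrank for 12.3%. Mylk (0.48 to 0.18), Smtn (0.47 to 0.17), Synpo2 (0.64 to 0.25) and Jph2 (0.62 to 0.24) lost the largest part of their spread. Kit (0.48 to 0.52), Ano1 (0.31 to 0.47), Casq2 (0.65 to 0.67), Nexn (0.24 to 0.39), Ldb3 (0.23 to 0.48), Ppp1r14a (0.38 to 0.55) and Pcp4 (0.52 to 0.66) had more spread after scaling. The within-group spread of the reference itself came mostly from Con. The mean log2 level of the 12 reference genes had an SD of 0.784 in Con, where Con 3 stood apart. The SD was 0.186 in DSS, 0.227 in UA+DSS and 0.159 in DSS+UA.

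**Figure D4:**
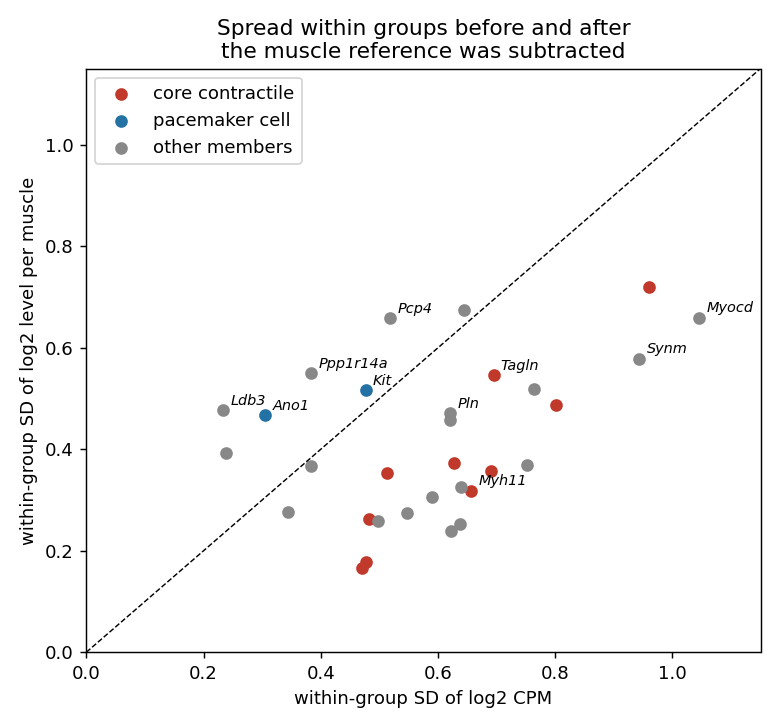
Within-group SD of log2 CPM (x) against the same after the muscle reference was subtracted (y), 1 point per gene. The dashed line marks equal spread. All core contractile genes lie below it, and Kit, Ano1, Ldb3, Ppp1r14a and Pcp4 lie above it. The within-group spread of the reference came mostly from Con, where Con 3 stood apart.

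Per muscle, with the 12 genes as reference, the calls of Pln, Kit, Casq2 and Ano1 in DSS against Con remained. This scaling moved the median log2 difference over all genes to -0.20 in DSS against Con, -0.29 in UA+DSS and 0.79 in DSS+UA, both against DSS, 0.59 in DSS+UA against Con, -0.44 in UA+DSS against Con and -1.03 in UA+DSS against DSS+UA. Values per muscle are relative to the muscle reference and not to that median. The test borrows its spread from all genes, which varied more on this scale, and the median SE of the 31 genes in DSS against Con was 0.45 on both scales, smaller per muscle for 11 of them. In DSS against Con, 1 gene rose and 4 fell per muscle, against 7.42% and 7.39% of all genes. Pln was -3.35 (SE 0.74, adjusted p = 0.000547), Casq2 -2.52 (SE 0.57, adjusted p = 0.000822), Ano1 -1.35 (SE 0.43, adjusted p = 0.0212) and Kit -1.20 (SE 0.43, adjusted p = 0.0433). Cald1 rose, at 1.24 (SE 0.43, adjusted p = 0.0382). These calls depend on the muscle reference. With the 10 core genes as reference, Casq2 and Pln alone fell in DSS against Con and 5 rose, and with Myh11 alone Pln fell and 5 rose (Hspb7, Myocd, Cald1, Flna and Cacna1c in each), so Kit and Ano1 lost their calls under both and Casq2 under the second. In UA+DSS against DSS, 2 rose and 0 fell, against 2.12% and 8.02%. They were Pln at 2.37 (SE 0.72, adjusted p = 0.0214) and Kit at 1.24 (SE 0.43, adjusted p = 0.0468). In the fits without 1 library the per-muscle calls of Pln and Casq2 in DSS against Con held in all 12. Kit lost its call in DSS against Con without Con 2 (adjusted p = 0.314), DSS 1 (0.275), DSS 3 (0.0848) or UA+DSS 1 (0.0540), and Cald1 in 9 of 12, all but those without Con 3, DSS 1 or UA+DSS 2. Ano1 lost its call in 4, and in UA+DSS against DSS Pln lost its call in 4 and Kit in 8.

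In the comparisons of DSS+UA with Con and with UA+DSS, fewer filament genes were called per muscle. In DSS+UA against Con 0 rose and 5 fell, against 10.8% and 1.37% of all genes, and all 5 were among the 11 on the CPM scale. They were Pln at -2.92 (SE 0.75, adjusted p = 0.00639), Casq2 at -1.65 (SE 0.56, adjusted p = 0.0391), Tagln at -1.61 (SE 0.56, adjusted p = 0.0431), Kit at -1.44 (SE 0.43, adjusted p = 0.0195) and Synpo2 at -1.34 (SE 0.42, adjusted p = 0.0262). Myh11, Des, Mylk, Myl9, Tpm2 and Nexn were no longer called. In UA+DSS against DSS+UA 4 rose and 2 fell, against 1.44% and 41.4%. Pln was 1.95 (SE 0.74, adjusted p = 0.0281), Kit 1.48 (SE 0.43, adjusted p = 0.00549), Synpo2 1.12 (SE 0.42, adjusted p = 0.0262) and Myh11 1.11 (SE 0.45, adjusted p = 0.0405). Ano1 was -2.08 (SE 0.44, adjusted p = 0.000280) and Ldb3 -1.22 (SE 0.45, adjusted p = 0.0229). In DSS+UA against DSS, Ano1 at 1.73 (SE 0.43, adjusted p = 0.00981) and Ldb3 at 1.35 (SE 0.45, adjusted p = 0.0337) rose, against 16.3% of all genes, and 0 fell, against 0.991%. In UA+DSS against Con 0 rose and Ano1 alone fell, at -1.70 (SE 0.43, adjusted p = 0.0282), against 0.232% and 0.844%. Pln in DSS+UA against Con and Ano1 in UA+DSS against DSS+UA kept these calls in all 12 fits without 1 library, and each of the others lost its call in 1 to 8 of the 12.

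**Figure D5:**
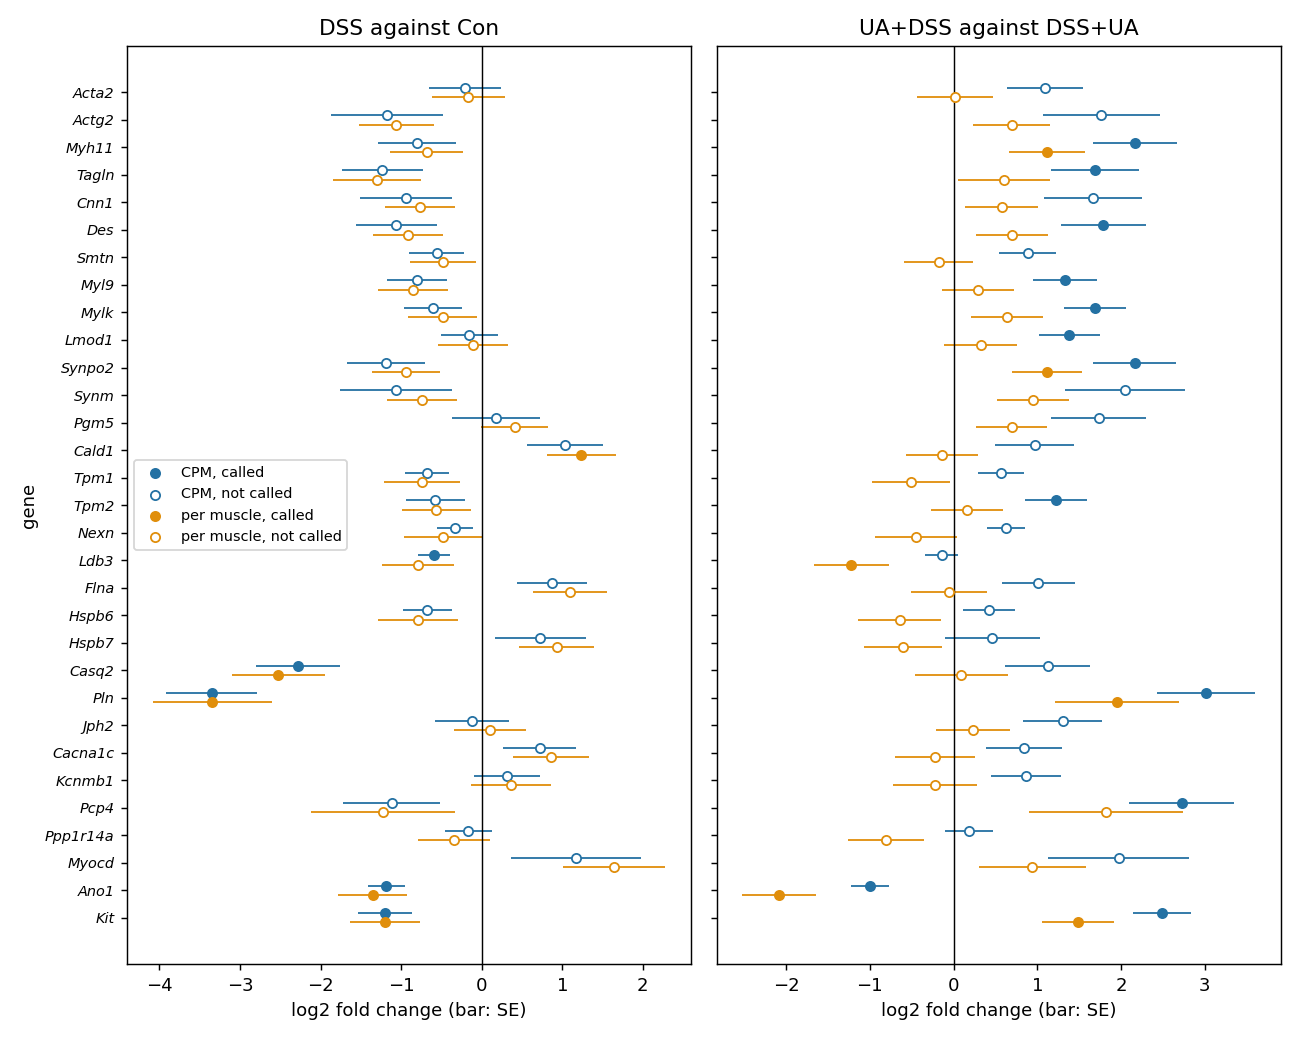
Log2 fold change of each of the 31 genes (bars, SE) in DSS against Con, left, and UA+DSS against DSS+UA, right, on the CPM scale (blue) and per muscle (orange); filled points passed an adjusted p of 0.05. On the left the scales give similar values. On the right most filament genes move toward 0 per muscle, while Kit and Pln remain above it and Ano1 below.

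Leaving out Con 3 or taking colon position into the fit changed these counts. Without Con 3, 6 genes rose (Jph2, Myocd, Cald1, Flna, Pgm5 and Cacna1c) and 3 fell (Casq2, Ano1 and Pln) in DSS against Con, against 11.6% and 10.5% of all genes. The median log2 difference over the core genes there went from -0.80 to -0.04. With the position score as a covariate, DSS against Con had 0 raised and 4 lowered (Kit, Casq2, Ano1 and Pln), against 16.3% and 14.2%. DSS+UA against Con had 0 raised and 4 lowered (Kit, Casq2, Pln and Nexn), against 5.64% and 6.68%. In UA+DSS against DSS edgeR then called 0 of the 31 and 0.017% of all genes, and in UA+DSS against DSS+UA 0 and 0.0%, with 2 of the 31 at an unadjusted p under 0.05 in each. Without Con 3, the calls in DSS+UA against Con numbered 6 and those in UA+DSS against DSS+UA 19, against 8.58% and 15.4% of all genes. In DSS+UA against DSS, 1 rose and 8 fell without Con 3, against 2.13% and 4.74%. Without DSS+UA 3, 3 fell in DSS+UA against Con and 2 rose in UA+DSS against DSS+UA, against 2.38% and 1.88% of all genes. Per muscle and without Con 3, 3 rose and 10 fell in DSS against Con, where 6.05% and 27.5% of all genes did. On that scale 3 rose and 2 fell in UA+DSS against DSS, beside 2.76% and 14.2%, and in DSS+UA against DSS 3 rose and 3 fell, against 43.8% and 1.96%. Between UA+DSS and Con 2 were higher and 6 lower in UA+DSS, against 0.456% and 37.2%, and in UA+DSS against DSS+UA 7 rose and 3 fell, against 1.56% and 53.5%.

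Genes that control contraction were read from lists. Of 12 genes of the SRF and myocardin pathway, 2 rose (Foxf1 and Nkx2-3) and 2 fell (Gata6 and Mrtfb) in DSS against Con. Over all genes 13.9% rose and 12.6% fell there, so these counts are near the shares of all genes. Foxf1, Nkx2-3 and Gata6 are transcription factors of the developing gut, and Mrtfb is an SRF partner. Foxf1 was 0.85 (SE 0.16, adjusted p = 0.00496) and Gata6 -0.61 (SE 0.13, adjusted p = 0.00851). Foxf1 was lower in UA+DSS than in DSS, at -1.13 (SE 0.16, adjusted p = 0.00725). Of the 12, 1 rose and 3 fell in DSS+UA against DSS, against 2.54% and 5.0% of all genes. In UA+DSS against DSS 1 rose and 2 fell, against 8.21% and 10.5%. Srf itself ranged from 23.5 to 66.7 CPM and was not called. Of 24 genes of contraction signaling 23 were tested. In DSS+UA against Con 0 rose and 4 fell, against 9.13% and 8.95% of all genes. The count was reversed in UA+DSS against DSS+UA, with 4 raised and 0 lowered, against 7.54% and 9.23%. Both subunits of the nitric oxide receptor guanylate cyclase were among the 4 that fell. Gucy1a1 measured 29.0, 17.1 and 30.9 CPM in Con, 18.5, 22.8 and 26.7 in DSS, 22.9, 17.6 and 21.6 in UA+DSS and 11.3, 8.54 and 8.54 in DSS+UA. Its DSS+UA libraries were the lowest of the 12, at -1.44 (SE 0.25, adjusted p = 0.00622) against Con. Gucy1b1 was -1.10 (SE 0.26, adjusted p = 0.0167). The tachykinin receptor Tacr2, through which nerves excite the muscle, was -2.40 (SE 0.66, adjusted p = 0.0307).

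Other cells of the muscle coat were read in the same way. P2ry1, the purine receptor of PDGFRA-positive interstitial cells, measured 25.8, 47.1 and 43.8 CPM in Con, 9.09, 13.6 and 16.7 in DSS, 32.8, 37.4 and 33.1 in UA+DSS and 11.8, 10.8 and 14.1 in DSS+UA. It fell by 1.56 (SE 0.26, adjusted p = 0.00342) in DSS against Con and was 1.39 (SE 0.26, adjusted p = 0.0112) higher in UA+DSS than in DSS. Pdgfra itself went the other way, at 1.45 (SE 0.22, adjusted p = 0.00250) and -1.29 (SE 0.22, adjusted p = 0.00944). Of 12 enteric neuron and glia genes 1 was called in DSS against Con (Gfap, raised) and 0 in the other comparisons by edgeR. Over all genes 13.9% were raised in DSS against Con. The neuronal nitric oxide synthase Nos1 was at 0.998 to 1.44 CPM in Con 1, Con 2, DSS+UA 2 and DSS+UA 3 and at 7.70 to 20.0 CPM in the 8 other libraries. Skeletal muscle genes summed to 11.3 to 23.1 CPM in DSS and 22.0 to 23.6 CPM in Con. Pancreatic enzyme genes were high in DSS 3 alone, with a summed level of 14920.4 CPM against at most 555 CPM elsewhere. Without DSS 3 the number of the 31 genes called was 5 in DSS against Con, 3 in UA+DSS and 1 in DSS+UA, both against DSS. Fat cell genes ranged from 2.33 to 141 CPM over the 12 libraries, and mesothelial genes were at 52.8 CPM in DSS 2, 8.19 and 9.91 CPM in the other DSS libraries, 6.56 to 13.7 CPM in DSS+UA, 2.18 to 2.499 CPM in UA+DSS and 0.222 to 1.12 CPM in Con. The part of these tissues in the levels of the 31 genes was not tested.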

How the data were processed

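The authors deposited 1 table of raw counts per gene for each of the 12 libraries, and these counts were used as deposited. The submitters' processing notes name FastQC, HISAT2, Cuffdiff and GRCm38. How reads were counted, and whether by strand, is not given in the sources used here. Rows without a gene name held 0.00364% of the counts and were kept. Libraries held 15566216 to 19498383 counts (median 18569669). With 3 mice per group, p-values rest on the spread between mice within groups, pooled over the 4 groups and partly borrowed from other genes. They cover no spread beyond these 12 mice.

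Genes were filtered with filterByExpr (17658 kept), scaled with TMM factors (0.871 to 1.09) and tested with edgeR 4.0.16 (R 4.3.3; quasi-likelihood, robust) in 1 fit of 12 libraries, with Benjamini-Hochberg adjustment over all genes and a threshold of 0.05. The fit was tested on simulated data. The same fit was repeated per muscle, with libraries scaled to 12 other smooth muscle genes. DESeq2 1.42.0, limma-voom 3.58.1, other scalings and filters, covariates, a replicate block and fits without each library were the alternatives. Summaries were made in Python 3.11.15 with pandas 2.3.3.

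The 31 genes and the gene lists were chosen with earlier results of these data known. All 31 genes are named, and values in each library are given for genes called in any comparison and for 11 chosen ones, with folds where called. Of each list at most 3 genes are named per comparison. Promoter windows came from RefSeq on GRCm38.p6, and gene positions from GENCODE on GRCm38.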

Additional observations from a re-analysis of the deposited data

How the results depend on the processing

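Over the other tests, scalings and filters, the fits of only the 2 groups, the replicate block and the fits without 1 library, 730 of 928 log2 changes of called genes of the 31 kept their call and 198 lost it. With a covariate or another muscle reference 30 of 106 kept it and 76 lost it. In 0 of these values did the direction turn. The number of the 31 genes called in DSS against Con, 5 in the report, was 3 when only the 2 groups compared were fitted and 12 with muscle content as a covariate. For UA+DSS against DSS, 3 became 1 with at least 10 counts asked of every sample, 6 with the muscle covariate and 0 with the position covariate. For DSS+UA against DSS, 1 became 7 with DESeq2, 3 with at least 10 counts, 3 with only the 2 groups, and 0 with library size alone, with either covariate or with the replicate block. UA+DSS against Con went from 0 to 1 with DESeq2. DSS+UA against Con went from 11 to 3 with the muscle covariate and 4 with the position covariate, and UA+DSS against DSS+UA from 12 to 19 with only the 2 groups and to 0 with either covariate. Per muscle, with the 10 core genes as reference, 5 rose and 2 fell in DSS against Con where the report has 1 and 4. The counts were 1 in UA+DSS (lowered, where 2 had risen) and 1 in DSS+UA (raised) against DSS, 0 in UA+DSS against Con, 3 in DSS+UA against Con (2 raised, 1 lowered) and 2 in UA+DSS against DSS+UA (both lowered). With Myh11 alone as reference 5 rose and 1 fell in DSS against Con, the counts against DSS were 4 in UA+DSS (all lowered) and 1 in DSS+UA (raised), and 0 were called in UA+DSS against Con. In DSS+UA against Con, 4 then rose and 0 fell, where 0 and 5 are reported, and in UA+DSS against DSS+UA 0 rose and 9 fell, where 4 and 2 are reported. With Myh11 as reference the median log2 difference over all genes was 1.63 in DSS+UA against Con and -2.14 in UA+DSS against DSS+UA. The counts went in those directions too. With the 10 core genes as reference these medians were 1.32 and -1.46. Shares over all genes are not given beside the counts of this section, so these counts describe the 31 genes alone. The causes were not tested.

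Without 1 library at a time the counts ranged from 3 to 9 in DSS against Con, 1 to 5 in UA+DSS and 0 to 9 in DSS+UA against DSS, 0 to 0 in UA+DSS against Con, 3 to 13 in DSS+UA against Con and 2 to 19 in UA+DSS against DSS+UA. Per muscle the ranges were, in the same order, 2 to 13, 0 to 5, 0 to 6, 0 to 8, 1 to 5 and 2 to 10. The highest counts came without Con 3, except in DSS+UA against Con on both scales and in UA+DSS against Con on the CPM scale. The share of counts ranged from 0.296 to 0.568% in Con, 0.335 to 0.401% in DSS, 0.418 to 0.537% in UA+DSS and 0.184 to 0.205% in DSS+UA, and over the 10 core genes alone it was 0.161% in DSS, 0.258% in UA+DSS and 0.0818% in DSS+UA.

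Groups share replicate numbers in the labels, but same-numbered libraries did not deviate together, with correlations of -0.216 to 0.187 (median 0.0412, 18 pairs). The main fit therefore did not pair the mice. Weak correlations of deviations from means of 3 libraries cannot exclude a pairing. With the replicate block the counts were 6, 3, 0, 0, 9 and 9 in the order above, and 5, 2, 2, 1, 5 and 6 per muscle. Few reads limit Pln, Pcp4 and Myocd most, and intervals of shares cover counting error alone.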
